A study of Mus musculus with 16 samples.

Results

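The liver X receptor alpha gene Nr1h3, 3 genes known as its targets (Abcg1, Apoe and Lpcat3), the isoprenoid and sterol synthesis gene Fdps and the fatty acid carrier gene Fabp5 were described in bulk RNA-seq of mouse bone marrow-derived macrophages. These 6 genes were picked by name from the 3071 genes that the authors' deposited table lists for beta-glucan against control at an adjusted p below 0.05, so their difference between the 2 groups is part of how they were chosen. It is given here as values with no test. The macrophages came from aged C57BL/6 mice and were grown from marrow over 7 days with M-CSF, the cytokine that drives macrophage differentiation, at 10 ng/mL. The 8 beta-glucan libraries came from cells given 10 µg/mL of beta-glucan, a cell wall polysaccharide of the fungus Candida albicans, for 24 hours, and the 8 control libraries came from cells given PBS for the same time. Both groups then rested for 7 days before RNA was taken, and the series compares them to examine trained immunity, the lasting change in innate cells after an early stimulus. The control libraries carry the numbers 2, 3, 5, 7, 9, 10, 12 and 13 and the beta-glucan libraries 5, 6, 7, 8, 9, 10, 12 and 13. The labels do not say whether the libraries are separate mice or separate cultures, so every p-value measures the spread between these libraries, which may be technical.

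Liver X receptors are nuclear receptors that bind oxysterols and, as dimers with retinoid X receptors, switch on genes that remove cholesterol from the cell. Macrophages use them for reverse cholesterol transport: ABCG1 passes cholesterol to HDL, apolipoprotein E carries lipid away, and LPCAT3 loads polyunsaturated fatty acids into membrane phospholipids. Sterol synthesis runs the other way, under the SREBP transcription factors, which are held inactive when membrane sterol is high; farnesyl pyrophosphate synthase, encoded by Fdps, makes the precursor of both sterols and the isoprenoids attached to small GTPases.

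The 250 bases before the transcript start are printed for the receptor and for the 2 of its targets whose entry matched by symbol in the RefSeq promoter table (GRCm38.p6), because liver X receptors act through DNA elements and the question of how Nr1h3 relates to its targets starts there. Abcg1, Fdps and Fabp5 had no matching entry. The Nr1h3 window, chr2:91195117-91195366 on the minus strand, leads to a transcript start 7718 bases downstream of the gene start in the deposited table. The whole window is thus inside the deposited gene. Of the 2 windows the RefSeq promoter table lists for Nr1h3, it is the nearer to the deposited gene start. The Apoe window is chr7:19699189-19699438 on the minus strand and abuts the deposited gene start. The Lpcat3 window is chr6:124662854-124663103 on the plus strand, and its last 77 bases lie inside the deposited gene. Those bases hold the CCAAT boxes at 50 to 46 and 8 to 4 bases before the transcript start. They also hold the GC boxes at 69 to 64 and 22 to 17 bases before it. Capitals mark GC boxes (GGGCGG on either strand) and CCAAT boxes (CCAAT on either strand).
Nr1h3: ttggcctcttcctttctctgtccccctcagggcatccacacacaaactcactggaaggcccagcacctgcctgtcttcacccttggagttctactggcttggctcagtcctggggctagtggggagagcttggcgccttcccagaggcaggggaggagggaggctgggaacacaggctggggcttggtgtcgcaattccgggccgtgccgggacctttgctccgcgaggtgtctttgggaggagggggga
Apoe: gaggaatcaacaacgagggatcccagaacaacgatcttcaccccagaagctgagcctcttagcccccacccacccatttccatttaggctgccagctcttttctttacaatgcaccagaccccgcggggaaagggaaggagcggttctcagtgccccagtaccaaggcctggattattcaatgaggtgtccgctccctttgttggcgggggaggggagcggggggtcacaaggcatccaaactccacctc
Lpcat3: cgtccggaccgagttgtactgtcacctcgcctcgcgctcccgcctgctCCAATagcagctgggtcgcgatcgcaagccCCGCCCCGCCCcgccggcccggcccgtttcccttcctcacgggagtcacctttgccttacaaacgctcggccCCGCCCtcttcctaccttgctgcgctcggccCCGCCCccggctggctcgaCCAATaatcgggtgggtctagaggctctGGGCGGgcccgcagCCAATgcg
The Lpcat3 window held 5 GC boxes, of which a pair overlap by 1 base, and 3 CCAAT boxes, whereas the other two windows held neither; 32.7% of the 32851 RefSeq promoter windows hold a GC box and 33.8% a CCAAT box. GC content was 63.2% for Nr1h3, 57.2% for Apoe and 70% for Lpcat3. None of the 3 windows held an exact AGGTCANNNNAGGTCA, the direct repeat that liver X receptors bind, which is in 0.0152% of all windows, or the half-site AGGTCA on its own, which is in 14.0%. None held the sterol response element TCACNCCAC, found in 1.05% of windows, or TATAAA, found in 12.4%. Both strands were searched for each motif, and the result covers these letters in these windows only.

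The libraries were of similar depth. The deposited size factors ran from 0.864 to 1.16, and each library had 4382665 to 5600727 reads on the listed genes. On the main axis of variation over 2373 listed genes without the 6 (63.3% of variance, scaled to a mean of 0 in control and 1 in beta-glucan), controls 2, 3 and 5 lay at -0.474, -0.319 and -0.365, controls 12 and 13 at 0.548 and 0.487, and the beta-glucan libraries from 0.700 to 1.29. The control libraries thus spread along the axis that separates the groups, and controls 12 and 13 lay nearest to beta-glucan. Of 10 macrophage markers, 5 are in the table: Csf1r, Adgre1, Itgam and Mertk are lower and Cd14 is higher in the authors' deposited table, and their summed normalized counts ran from 85337 to 158632 in control and from 74529 to 84808 in beta-glucan. The M-CSF receptor Csf1r had 70874 ± 16817 normalized counts in control and 44301 ± 3192 in beta-glucan (mean ± SD, n = 8 each). This marker was thus abundant in both groups, which alone does not settle what the cells are. The monocyte marker F13a1 was at 61.5 to 520 normalized counts in control and 9.90 to 39.5 in beta-glucan. Of the markers of other cells, the B cell gene Cd79b was at 16.1 to 45.8 and 5.50 to 29.6 normalized counts in control and beta-glucan, and the endothelial genes Vwf and Kdr at 2234 to 4000 and 30.1 to 87.4 in control and at 1748 to 2678 and 69.7 to 155 in beta-glucan. No neutrophil, dendritic cell, osteoclast, adipocyte, fibroblast, T or NK cell, mast cell or erythroid marker from the lists is in the table, which leaves their level not analysed here. The part that these markers play in the lipid gene differences was not tested, and in bulk RNA a change in the number of cells of a type and in the RNA per cell cannot be told apart.

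Nr1h3 (ENSMUSG00000002108, chr2:91184061-91202834, minus strand, mm10) was higher after beta-glucan. Its normalized count, the read count divided by the library's deposited size factor, was 449 at the lowest, 569 at the median and 817 at the highest in control, against 694, 977 and 1366 in beta-glucan. The groups met at their edges: control 12, the highest control, exceeded beta-glucan 5 and 13, and no other control reached a beta-glucan library. The means were 592 ± 127 and 982 ± 223 (SD, n = 8 each), a log2 fold change of 0.73 ± 0.15 (edgeR, SE). Here and below, this SE is the size of the log2 fold change divided by the square root of the edgeR F statistic.

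Among the known targets of the receptor, Abcg1 was higher and Apoe and Lpcat3 were lower after beta-glucan. Abcg1 (ENSMUSG00000024030, chr17:31057698-31115777, plus strand), the cholesterol exporter, had 748, 1035 and 1906 normalized counts at the lowest, median and highest in control and 1535, 1976 and 2972 in beta-glucan. Control 13 was the 1 control within the beta-glucan range, and control 10, at 1509, lay just below it. The means were 1173 ± 366 and 2120 ± 534, a log2 fold change of 0.85 ± 0.18. Control 12, the control with the most Nr1h3, had 1166 counts of Abcg1, near the group mean.

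Apoe (ENSMUSG00000002985, chr7:19696109-19699188, minus strand), the secreted apolipoprotein, was the most abundant of the 6 and the least well separated. It had 47258, 93563 and 118352 normalized counts at the lowest, median and highest in control and 32758, 47768 and 80922 in beta-glucan. Each group fell into a high and a low set. Controls 9 and 10 had 49717 and 47258 counts while the other 6 had 74483 or more, and beta-glucan 9, 10 and 13 had 71087, 74349 and 80922 while the other 5 had 47871 or fewer. The means were 87910 ± 28681 and 54726 ± 17997, a log2 fold change of -0.68 ± 0.22, and 3 of the 8 controls lay at or below the highest beta-glucan library.

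Lpcat3 (ENSMUSG00000004270, chr6:124663027-124704418, plus strand), the phospholipid acyltransferase, had 745, 913 and 1179 normalized counts in control and 614, 728 and 887 in beta-glucan. Control 12, the highest for Nr1h3, was the lowest control for Lpcat3, and control 2, the lowest for Nr1h3, was the highest for Lpcat3. The groups overlapped, with 3 controls within the beta-glucan range. The means were 945 ± 136 and 733 ± 89.0, a log2 fold change of -0.37 ± 0.10, the smallest of the 6. The annotation (GENCODE M21) places 334 of its 3268 exonic bases opposite exons of Emg1, and whether counting used strand is not given in the sources used here.

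Fdps (ENSMUSG00000059743, chr3:89093588-89101959, minus strand), the mevalonate pathway enzyme, was lower and barely detected. Its normalized counts were 24.3, 39.9 and 55.3 in control and 10.4, 24.1 and 31.3 in beta-glucan, from 21 to 55 reads per control library and 10 to 34 per beta-glucan library. Control 2 was the 1 control within the beta-glucan range. The means were 40.0 ± 9.51 and 21.9 ± 7.60, a log2 fold change of -0.86 ± 0.26. Counting alone gives a coefficient of variation of 15.6% in control and 21.3% in beta-glucan at this depth, against 23.8% and 34.7% measured. The count is uncertain for a further reason: 1124 of its 4208 exonic bases are shared on the same strand with Gm43738, and 75.8% of the 100-base windows of its longest coding transcript also occur in the transcripts of Gm3571, Gm43738 or Gm5873, so reads could be split among or dropped from these genes.

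Fabp5 (ENSMUSG00000027533, chr3:10012548-10016607, plus strand), which carries fatty acids inside the cell and delivers them to nuclear receptors, was higher after beta-glucan. It had 7214, 9415 and 19646 normalized counts in control and 15192, 17532 and 23177 in beta-glucan. The overlap came from control 12 alone, which lay above 5 of the 8 beta-glucan libraries; the next control, 13, had 13381. The means were 10584 ± 4229 and 18395 ± 3088, a log2 fold change of 0.80 ± 0.18. Of the windows of its longest coding transcript, 9.01% also occur in Gm14328 or Gm6166.

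In no member were the groups free of overlap, while they were in 231 of the 3071 listed genes (7.52%). All 6 are in the table by choice, as are 17.9% of the 17130 genes that the authors tested, 6.30% higher and 11.6% lower, and nothing is read from that share.

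**Figure D1:**
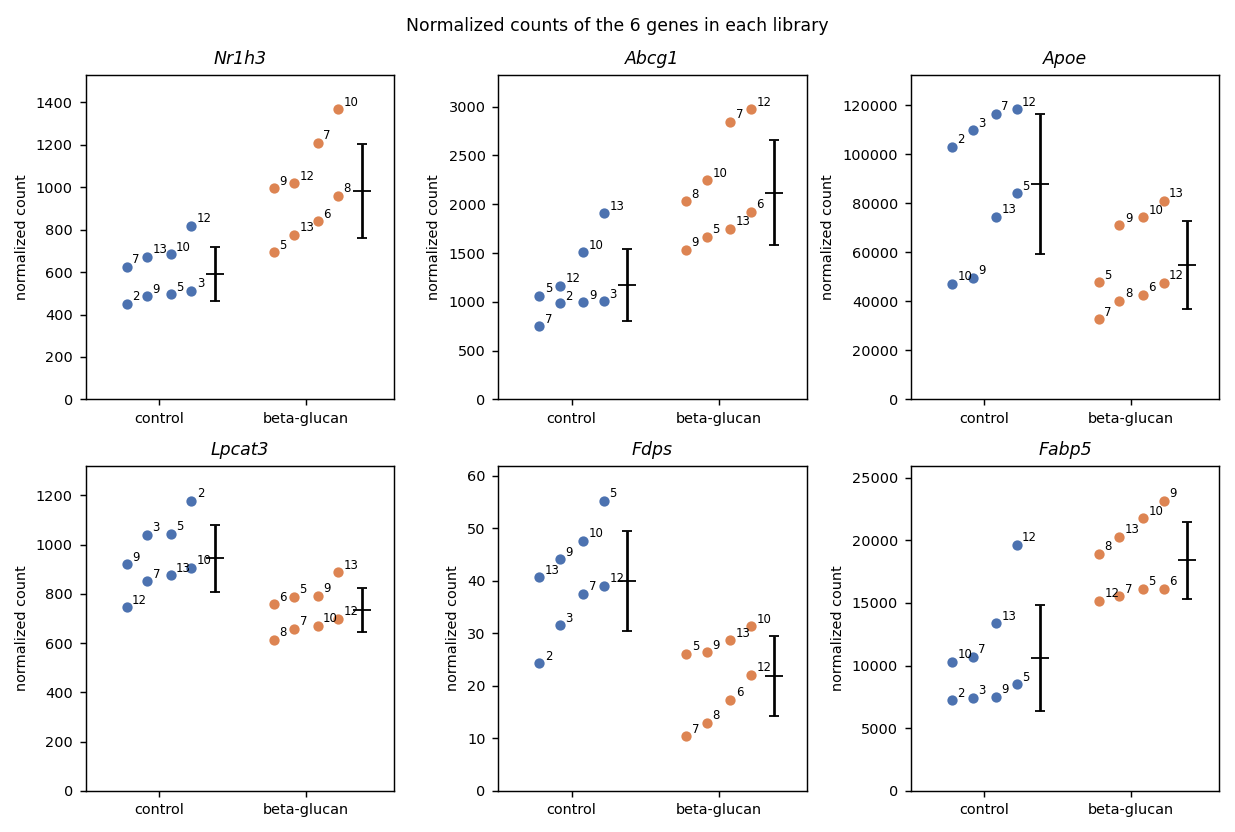
Normalized counts of the 6 genes in each of 8 control (blue) and 8 beta-glucan (orange) libraries, numbered as in the labels, with the mean ± SD as black bars beside each group. Nr1h3, Abcg1 and Fabp5 sit higher after beta-glucan with 1 control inside the beta-glucan range, Apoe splits into high and low libraries in both groups, and Fdps stays below 56 counts.

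Per base of transcript, Apoe stood far above the others. Its FPKM, the authors' value per unit of gene length and of library size, was 2292 ± 748 in control and 1427 ± 469 in beta-glucan (mean ± SD, n = 8 each). Fabp5 followed at 165 ± 66.1 and 288 ± 48.3 FPKM. The receptor and its other two targets were expressed at like levels in control, with 9.96 to 18.1 FPKM for Nr1h3, 10.3 to 26.1 for Abcg1 and 12.7 to 20.1 for Lpcat3, ranges that overlap. In beta-glucan they were at 15.4 to 30.3 FPKM for Nr1h3, 21.0 to 40.8 for Abcg1 and 10.5 to 15.1 for Lpcat3. On the deposited lengths, 2515 bases for Nr1h3 and 3268 for Lpcat3, the highest Lpcat3 lay just below the lowest Nr1h3. Their longest coding transcripts have 1955 and 2281 bases. FPKM on those lengths was not computed, so this order is not settled. The place of Abcg1 depends on the length used: its deposited length is 4066 bases, whereas its exons in GENCODE M21 cover 7298, on which its FPKM was 5.72 to 14.6 in control and 11.7 to 22.7 in beta-glucan, overlapping with both of the others in each group. Fdps was last at 0.530 and 0.290 FPKM on average. For the 5 genes other than Abcg1 the deposited length equals the whole set of M21 exons: it is 3567 bases for Fabp5, whose longest coding transcript has 987, and 4208 for Fdps, whose longest has 1382, so the FPKM of these genes is low for the transcript itself.

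Library-to-library spread also differed among the 6. Among 2378 listed genes with a mean normalized count of at least 50, 88.2% had a smaller SD of log2 counts than Apoe in control and 90.0% in beta-glucan, while 23.7% and 34.7% had a smaller one than Lpcat3. Fabp5 was at 85.9% in control and 58.7% in beta-glucan, the largest shift of rank among the 5 genes above that minimum. Nr1h3 was at 51.0% and 76.6%, and Abcg1 at 74.4% and 79.7%.

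The direction of each of the 6 was the same in all 25 settings tried, but the size was not. Each setting refits the counts by which the genes were chosen, so a kept direction is no independent support. TMM factors computed from the listed genes moved the log2 fold change of all genes by a median of 0.19, and with them Lpcat3 was at -0.17, Apoe at -0.50 and Nr1h3 at 0.89. Without controls 12 and 13, the log2 fold change of Fabp5 was 1.10 and that of Abcg1 1.01. Without controls 2 and 3, Fabp5 was at 0.66 and Nr1h3 at 0.64. The full ranges were 0.63 to 0.91 for Nr1h3, 0.77 to 1.04 for Abcg1, -0.80 to -0.44 for Apoe, -0.43 to -0.16 for Lpcat3, -1.001 to -0.68 for Fdps and 0.66 to 1.10 for Fabp5.

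**Figure D2:**
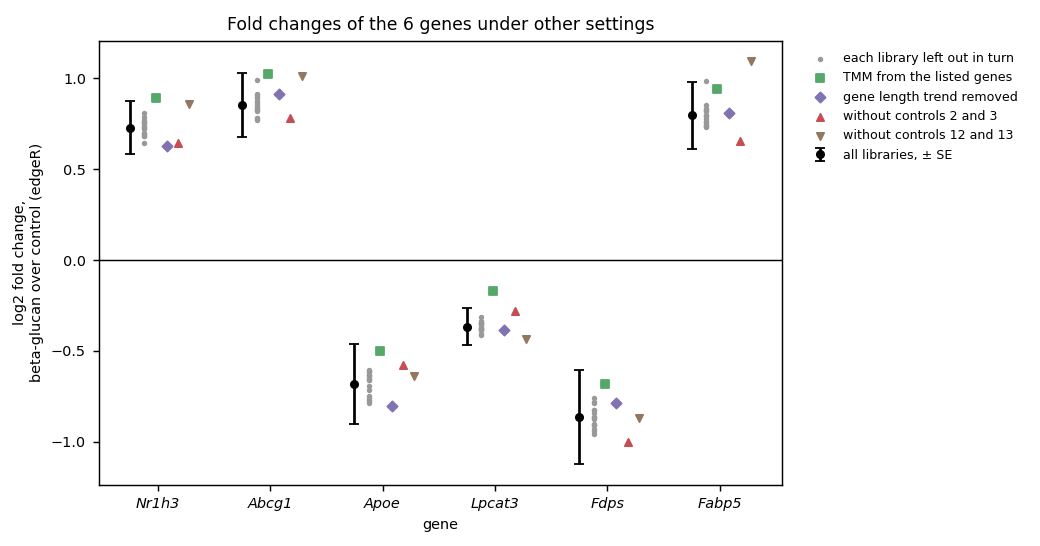
Log2 fold change of each of the 6 genes, beta-glucan over control, from edgeR with all 16 libraries (black, ± SE), with each library left out in turn (grey) and under 4 other settings (coloured). Every point is from the counts by which the genes were chosen and keeps the sign of the black one. Lpcat3 comes nearest to 0, at -0.17 with TMM factors.

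Whether the receptor's level followed that of its targets was asked inside each group, which leaves out the difference between the group means. The controls spread along the axis that separates the groups, so control relations cannot be taken as free of the contrast that chose the genes. The 15 pairs of genes in the 2 groups made 30 relations, each with an exact permutation test over 8 libraries on log2 normalized counts and Benjamini-Hochberg adjustment over the 30. The test treats the 8 libraries as independent units, which the labels do not settle. Controls 2 and 3, and controls 9 and 10, were the most alike of the control pairs (chi-square per degree of freedom 11.7 and 10.9). By Pearson's r, 4 passed an adjusted p of 0.05, and by Spearman's rho 1 did.

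Nr1h3 did not pass with either of its efflux targets. With Abcg1 its r was 0.44 in control (exact permutation p = 0.287, adjusted p = 0.506; rho 0.64, p = 0.0962, adjusted p = 0.305), and 0.53 without controls 12 and 2. In beta-glucan it was 0.60 (exact permutation p = 0.115, adjusted p = 0.383; rho 0.67, p = 0.0831, adjusted p = 0.305), and 0.63 without beta-glucan 5 and 10. Neither value for the receptor and the exporter passed. With Apoe its r was 0.07 in control (exact permutation p = 0.870, adjusted p = 0.932; rho 0.17, p = 0.703, adjusted p = 0.782) and -0.03 in beta-glucan (exact permutation p = 0.937, adjusted p = 0.969; rho -0.17, p = 0.703, adjusted p = 0.782), the lowest in size of its 5 relations in each group. Without the 2 libraries farthest from the Nr1h3 median these became -0.12 and -0.63. With 8 libraries these tests leave moderate correlations undecided.

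With Lpcat3, Nr1h3 ran in the opposite direction. In control r was -0.89 (exact permutation p = 0.00320, adjusted p = 0.0335; rho -0.83, exact permutation p = 0.0154, adjusted p = 0.115), and without the 2 libraries farthest from the Nr1h3 median, 12 and 2, it was -0.72. In beta-glucan r was -0.66 (exact permutation p = 0.0741, adjusted p = 0.371; rho -0.57, p = 0.151, adjusted p = 0.324) and -0.68 without beta-glucan 5 and 10. The control relation was weaker with another scaling: with TMM factors r was -0.45 (exact permutation adjusted p = 0.408). Those factors were computed only from listed genes, which all differ between the groups, so the change in r cannot show which scaling is right. Of 2293 listed genes, 2.88% were at least as strongly correlated with Nr1h3 in control as Lpcat3 was.

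Nr1h3 and Fabp5 ran together across the controls, from control 2, with 449 and 7214 normalized counts, to control 12, with 817 and 19646. Their r was 0.94 (exact permutation p = 0.00131, adjusted p = 0.0335; rho 0.86, exact permutation p = 0.0107, adjusted p = 0.107), and 0.88 without controls 12 and 2. With TMM factors it was 0.97 (exact permutation adjusted p = 0.00818), and 0.392% of the listed genes were at least as correlated with Nr1h3 in control. In beta-glucan r was 0.22 (exact permutation p = 0.594, adjusted p = 0.717; rho 0.02, p = 0.977, adjusted p = 0.977), it was -0.35 without beta-glucan 5 and 10, and the difference between the groups was not tested. Lpcat3 and Fabp5 had the opposite sign in control, with r at -0.86 (exact permutation p = 0.00590, adjusted p = 0.0443; rho -0.90, p = 0.00456, adjusted p = 0.0685) and at -0.71 without controls 2 and 12. It was -0.43 with TMM factors (exact permutation adjusted p = 0.422), and 11.1% of the listed genes were at least as correlated with Lpcat3 in control.

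Those control relations ran along the axis on which the controls spread: the 4 controls with the most Nr1h3, 12, 10, 13 and 7, lay at 0.548, 0.136, 0.487 and -0.0456 on it, and those with the least, 2, 9, 5 and 3, at -0.474, 0.0317, -0.365 and -0.319. Without controls 12 and 13, r was 0.92 for Nr1h3 with Fabp5, -0.77 for Nr1h3 with Lpcat3 and -0.75 for Lpcat3 with Fabp5, and without controls 2 and 3 it was 0.93, -0.84 and -0.84. None of the 3 passed the adjusted threshold with either pair removed, where 6 controls are left; of all 30 relations, 4 and 6 then had an unadjusted exact permutation p below 0.05. The part of that axis in these relations was not tested.

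The last relation to pass was between Apoe and Fdps in beta-glucan, with r at 0.89 (exact permutation p = 0.00335, adjusted p = 0.0335; rho 0.98, exact permutation p = 0.000397, adjusted p = 0.0119) and at 0.86 without beta-glucan 13 and 10. Beta-glucan 7 was lowest in both, with 32758 counts of Apoe and 10.4 of Fdps. With TMM factors r was 0.88 (exact permutation adjusted p = 0.0603). In control their r was -0.53 (exact permutation p = 0.174, adjusted p = 0.434; rho -0.62, p = 0.115, adjusted p = 0.305). Of the listed genes, 2.22% were at least as correlated with Apoe in beta-glucan. Over the 20 other settings tried, the adjusted p stayed below 0.05 in 14 for Nr1h3 with Fabp5 (range 0.00818 to 0.313), in 12 for Nr1h3 with Lpcat3 (0.0251 to 0.408), in 6 for Lpcat3 with Fabp5 (0.0251 to 0.422) and in 8 for Apoe with Fdps (0.0197 to 0.109). Settings that leave out libraries of the other group keep the pair's r and unadjusted p. There the adjusted p moves only with the other relations, so these counts are no measure of how stable each pair is.

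**Figure D3:**
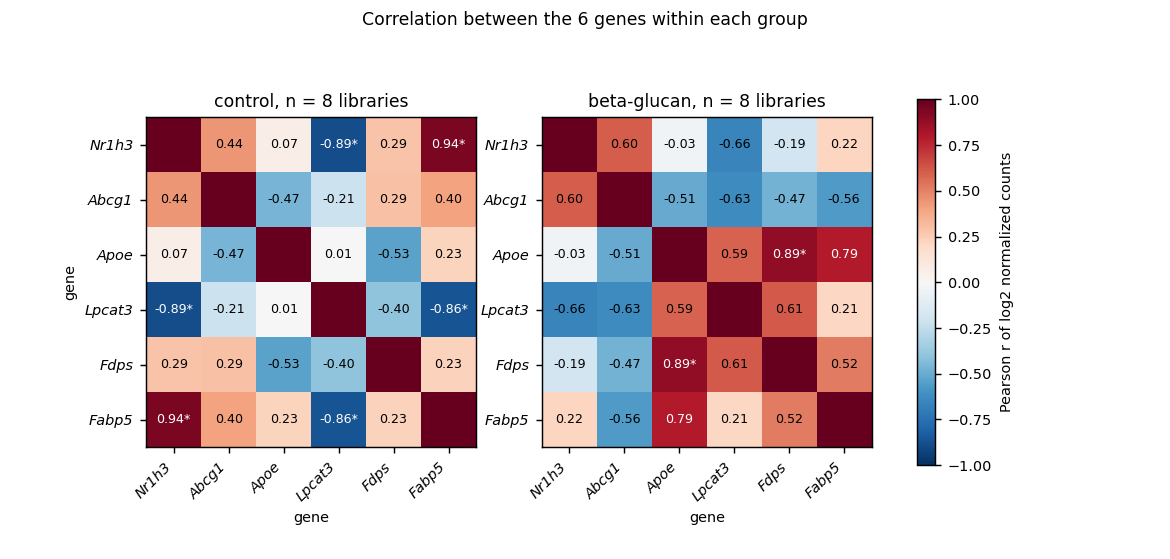
Pearson r of log2 normalized counts between the 6 genes within control (left) and beta-glucan (right), n = 8 libraries each, with an asterisk where the exact permutation p adjusted over the 30 relations is below 0.05. Control holds 3 marked pairs, among Nr1h3, Lpcat3 and Fabp5, and beta-glucan 1, Apoe with Fdps.

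**Figure D4:**
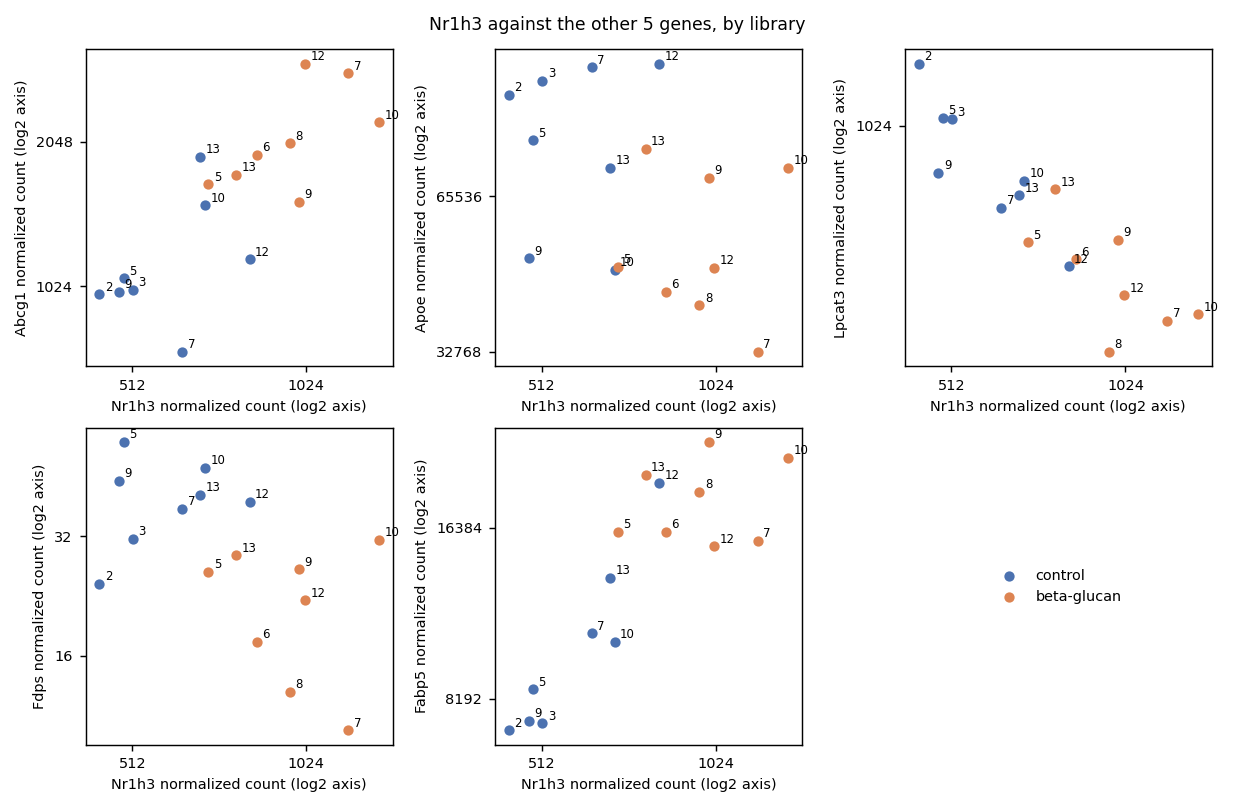
Normalized count of Nr1h3 (x) against each of the other 5 genes (y), on log2 axes, in 8 control (blue) and 8 beta-glucan (orange) numbered libraries. Fabp5 climbs with Nr1h3 among the controls (r 0.94) and Lpcat3 falls with it (r -0.89), while the r of Apoe is 0.07 in control and -0.03 in beta-glucan.

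Nr1h3 was then set against the 4 other liver X receptor targets in the table, a choice made after seeing the data: Arl4c, a small GTPase, Mertk, the receptor for apoptotic cells, Lpin1, a phosphatidate phosphatase, and Vegfa, an angiogenic factor. In control r ran from -0.84 to -0.49, and in beta-glucan from -0.10 to 0.34. Of the 8 relations, Mertk in control passed (r -0.84, exact permutation p = 0.00503, adjusted p = 0.0403; rho -0.71, p = 0.0576, adjusted p = 0.332), and its r was -0.58 without controls 12 and 2. The r of Lpin1 in control was -0.54 and did not pass (exact permutation p = 0.173, adjusted p = 0.430), and it was 0.22 without controls 12 and 2. With the normalized counts taken without the log, none of the 8 passed.

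The genes of the table most like each of the 6 were ranked by the mean of their r in the 2 groups, over 8 libraries each. For Nr1h3 they were Mrpl38, a mitochondrial ribosomal protein gene, at 0.87, Prpf31, a splicing factor gene, at 0.86 and Rpl4, a ribosomal protein gene, at 0.86. Abcg1 ranked 304th for Nr1h3 of 2293 genes, Apoe 982nd and Lpcat3 2247th, so none of the targets was near the top of that list. For Abcg1 they were Arhgap10 at 0.84, the presenilin gene Psen2 at 0.83 and Plin3, which coats lipid droplets, at 0.82. For Apoe they were Sh3gl1 at 0.94, Ypel3 at 0.91 and Ppp2r3d at 0.90. For Lpcat3 they were Slc6a6, the taurine transporter gene, at 0.92, Slit1 at 0.91 and Dzip3 at 0.87, and for Fdps they include Rttn at 0.85 and Cntnap1 at 0.78. The gene most like Fabp5 was its relative Fabp4, at 0.98 in control and 0.76 in beta-glucan, followed by the ferritin pseudogene Ftl1-ps1 at 0.85 and the cytochrome c gene Cycs at 0.84.

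The wider lipid pathways were described by 8 lists of genes, each with its count in the table beside 6.30% higher and 11.6% lower over all genes tested. By edgeR at an adjusted p below 0.05, 11.0% of the 17130 genes tested were called, 4.14% higher and 6.85% lower. Only the 3071 listed genes were fitted by edgeR, and 1882 of them were called, 709 higher and 1173 lower. For a count among list genes that are in the table, the like share is therefore 1882 of 3071, not 11.0%. The median authors' log2 fold change of all 3071 listed genes was -0.47. Those edgeR calls use the same counts that put the genes in the table, so they are no independent support, and the calls of the 6 described genes are part of their choice. Genes of the lists that are not in the table are not analysed here. In the list of 30 liver X receptor targets, which counts the receptor gene Nr1h3 itself, 8 are in the table. Of these, 2 are higher (Nr1h3 and Abcg1) and 6 lower. By edgeR 6 were called, or 3 without the described genes, all 3 lower. The median log2 fold change of the 8 was -0.56. The 4 that are not among the 6 genes described are all lower in the authors' deposited table, with a log2 fold change of -0.56 for Lpin1, -0.73 for Mertk and -0.76 for Vegfa.

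Nr1h3 was the 1 gene that was higher among the 10 of 26 nuclear receptor and coregulator genes in the table. The other 9 are lower in the authors' deposited table, among them the receptor Ppard at -0.55 and the coactivator Ncoa6 at -0.51 on the log2 scale, and edgeR called 8 of them. Without control 2 or without control 5 the calls in the list, Nr1h3 included, fell from 9 to 5. That list has long genes, with a median length of 10117 bases against 4336 over all listed genes. With a gene length trend removed from each library, the list's median log2 fold change was 9.5e-05 in place of -0.48. Then 1 gene, Nr1h3, was called, as with TMM factors, where the median was -0.27. The trend was fitted to the listed genes without regard to group, so it also takes out a group difference shared by genes of like length. This setting thus cannot tell an effect of length from an effect of beta-glucan.

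Sterol synthesis had 3 of 30 genes in the table, a share below the 11.6% that are lower among all genes tested. All 3 are lower and were called by edgeR, with a median log2 fold change of -0.70. Beside Fdps they include Mbtps1, the site-1 protease that activates SREBP, at -0.36 in the authors' deposited table, with 1817 ± 208 normalized counts in control and 1418 ± 85.4 in beta-glucan. With TMM factors, or with the length trend removed, edgeR called none of the 3, of which 3 and 2 had an unadjusted p below 0.05, and without control 5, control 9 or beta-glucan 8 it called 1.

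Cholesterol uptake, storage and efflux had 10 of 27 genes in the table, 3 higher and 7 lower, of which edgeR called 3 higher and 5 lower. That count of 8 was 4 to 9 with 1 library left out, and 4 or 5 without control 2, 3, 5 or 7 or beta-glucan 5, 6, 7, 8 or 12. The lower ones include the sterol transporter Gramd1a at -0.88, the lipoprotein receptor Lrp1 at -0.81 and Cyp27a1, which makes an oxysterol, at -0.95 in the authors' deposited table. Lrp1 had 46950 ± 12521 normalized counts in control and 26694 ± 4426 in beta-glucan. The median log2 fold change of the 10 was -0.58, and -0.10 with the length trend removed, which has the limit given above.

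Fatty acid binding, uptake and activation had 6 of 17 genes in the table, 5 higher and 1 lower; edgeR called all 6, and their median log2 fold change was 0.57. Fabp4 had 1077 ± 886 normalized counts in control and 2479 ± 450 in beta-glucan, Fabp3 had 180 ± 99.1 and 307 ± 38.9, and the transporter gene Slc27a3 had 36.4 ± 18.2 and 9.40 ± 7.47. The 3 fatty acid binding protein genes in the table were thus all higher, and controls reached into the beta-glucan range in each. The calls in this list depended on the libraries: without controls 2 and 3 edgeR called none of the 6, though all 6 had an unadjusted p below 0.05, and without controls 12 and 13 it called 3. With 1 library left out it called 2 to 5, and 3 or fewer without control 2, 3, 5 or 7 or beta-glucan 6, 8, 9, 10 or 12.

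Lipid droplet and triglyceride genes had 8 of 25 in the table, 6 higher and 2 lower, of which edgeR called 4 and 2, with a median log2 fold change of 0.41. Plin3 had 2266 ± 205 normalized counts in control and 3196 ± 313 in beta-glucan with no overlap, and Mgll, the monoacylglycerol lipase gene, had 133 ± 126 and 731 ± 327, a log2 fold change of 2.46 in the authors' deposited table. Lpin1, in the opposite direction, had 962 ± 165 and 653 ± 51.2. Phospholipid remodelling was split, with 3 of 24 higher and 4 lower in the table and 2 and 3 called by edgeR: the acyltransferase genes Agpat4 and Agpat5 are at 0.57 and 0.33 and Lpcat2 at -0.61 in the authors' deposited table. With TMM factors edgeR called 3 of these higher and none lower, and of the 5 calls 2 or 3 were left without control 2, 3, 5, 7 or 9 or beta-glucan 6, 7, 8, 10 or 12. All 3 of the 26 fatty acid synthesis and oxidation genes in the table are higher and were called by edgeR, and all 3 belong to oxidation: Acadl at 0.40, Slc25a20 at 0.33 and Acads at 0.32. That count fell to 1 without control 2, 3, 5, 7, 9 or 10 or beta-glucan 7, 8, 10 or 12.

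**Figure D5:**
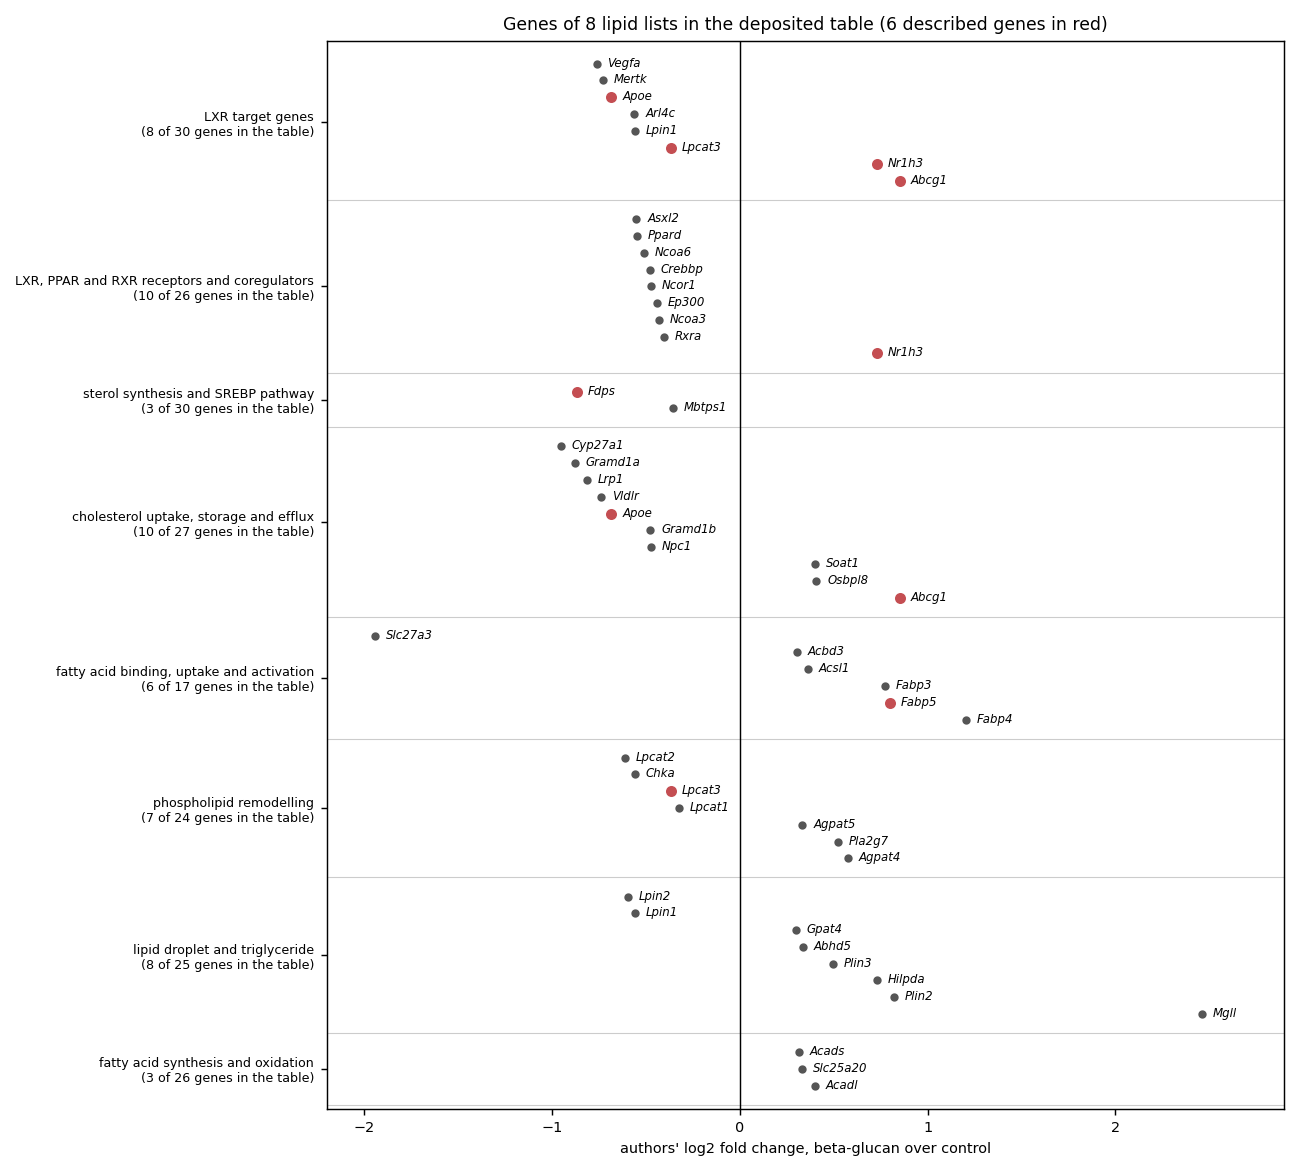
Authors' log2 fold change, beta-glucan over control, of genes of the 8 lists that the deposited table holds, with the 6 described genes in red and some genes not shown. Receptors other than Nr1h3, coregulators and sterol synthesis genes lie left of 0, fatty acid oxidation genes right of it, and Mgll reaches 2.46.

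In the authors' deposited enrichment tables, 62 terms that name sterols, lipids, lipoproteins, fatty acids or PPAR hold at least 2 of the 6 genes. None has an adjusted p below 0.05 and 15 have an unadjusted p below 0.05. The lowest adjusted p is 0.187, for lipid storage, with 21 of 61 genes listed, 13 higher and 8 lower, Nr1h3, Abcg1 and Apoe among them.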

How the data were processed

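Total RNA of 16 libraries, 8 per group by their titles, was sequenced. Per the submitters' processing notes, mm10 was the genome and STAR 2.5, HTSeq 0.6.1, CASAVA and DESeq2 were used; whether counting used strand, and how it treated reads with several matches, no source used here says. The deposited table gives whole read counts, normalized counts (a signal, in which the authors divided counts by 1 size factor per library), FPKM, whose values imply a common total of 17937135 reads, and the authors' log2 fold changes and p-values. Further deposited tables give enrichment p-values. The gene table holds the 3071 genes below an adjusted p of 0.05; its p-values and ranks imply that 17130 were tested, and the other 14059 are not analysed here.

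The counts of all libraries entered edgeR 4.0.16 (R 4.3.3; quasi-likelihood test, filterByExpr, which 2738 genes passed) with the deposited size factors, since the table is a selection, and Benjamini-Hochberg adjustment over 17130; 1882 genes (11.0%) had an adjusted p below 0.05. The effective library was 15492864 to 20738976 reads, and no 2 libraries of a group agreed within counting error (chi-square per degree of freedom 10.9 to 202 over 56 pairs). Within-group correlations used log2 normalized counts and 40320 exact permutations. Alternatives were DESeq2 1.42.0, other size factors, no filter, no log, a gene length trend removed, a replicate block, and libraries left out. The edgeR step was tested on simulated data. Genes were named by rule: the 6, the 3 genes most like each, up to 3 per list with the smallest authors' p, and the most abundant markers; Arl4c, the other markers and the other genes of small counts were named after their values were seen. The 6 genes and all lists were chosen with earlier results of these data known. Annotation is GENCODE M21 on GRCm38. Some genes that the rule names are not reported here.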

Additional observations from a re-analysis of the deposited data

How the results depend on the processing

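The table holds only called genes, so nothing is known here of the lipid genes outside it, and scaling cannot be checked on genes that did not change. Fdps is limited by its 10 to 55 reads per library. The number of genes called, 1882 with all libraries, was 2942 with DESeq2, 629 without controls 2 and 3 together and 1207 with the gene length trend removed (672 higher, 535 lower). Leaving out 1 library at a time gave 1150 to 2276, the count being 1150, 1220 and 1223 with control 2, 3 or 5 removed and 1206 with beta-glucan 8 removed. TMM factors gave 1036 higher and 528 lower and recomputed DESeq2 size factors 1056 and 510, against 709 and 1173. Without controls 2 and 3 edgeR called 3 genes in the receptor target list and 3 in the receptor and coregulator list. It called 1 sterol synthesis gene and 4 cholesterol handling genes. Without the described genes these counts were 1, 2, 1 and 3, all lower.

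The numbers shared by 12 libraries were not taken as pairs, since the labels do not say what they mark and same-numbered libraries had deviations correlated from -0.15 to 0.54, with 3 of 6 over 0.1. Whether they mark the same mouse is not known. With the replicate block 355 genes were called, and 68 from the same 12 libraries without it. With the block edgeR called 2 genes in the receptor target list and 2 in the receptor and coregulator list, with Nr1h3 in both counts. It called 3 lipid droplet genes and 1 gene each for cholesterol and phospholipids. The other lists had 0 calls, though their 3, 6 and 3 genes in the table all had an unadjusted edgeR p below 0.05. The cause was not tested.

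Of the pairs of the 6 genes, 4 passed; without the log 1 did, with TMM 1, without controls 2 and 3 or without 12 and 13 it was 0, and with 1 library left out 0 to 4. The 1 relation of Nr1h3 with other targets fell to 0 without the log, without controls 2 and 3 and without 12 and 13, and was 0 to 1 with 1 library left out. Among the relations recomputed, those of Nr1h3 and those that had passed, signs turned in some of Nr1h3 that had not passed: with Apoe in beta-glucan 0.037 without the log, with Fdps in control -0.58 without controls 2 and 3, and with Apoe in control -0.27 without controls 12 and 13. With 1 library left out, r ran from -0.27 to 0.35 with Apoe in control and -0.44 to 0.28 in beta-glucan, -0.15 to 0.58 with Fdps in control and -0.66 to 0.14 in beta-glucan, -0.089 to 0.45 with Fabp5 in beta-glucan, -0.76 to 0.051 with Lpin1 in control and -0.16 to 0.32 in beta-glucan, and -0.55 to 0.33 with Mertk in beta-glucan.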
